A study of Mus musculus with 6 samples.

Results

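The 8 genes described here encode the enzymes that copy, place and remove DNA methylation, with their partner proteins: Dnmt1, Uhrf1, Dnmt3a, Dnmt3b, Dnmt3l, Tet1, Tet2 and Tet3. They were chosen by name as 1 enzyme system, with earlier results of these data known, and all 8 were measured among 18193 genes. Expression was profiled in CD31+/CD41-/CD45- cells, a fraction enriched for endothelium, that were sorted from 3 tissues of mouse embryos at embryonic day 9.5. The tissues were the heart tube, the caudal-half portion of the embryo and the yolk sac. All came from animals of mixed background, with no treatment and no genetic change named in the labels. Each tissue had 2 independent biological replicates, each on its own Affymetrix array, so 6 arrays in all. How many embryos gave a sample was not stated in the sources used here.

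In mammals, DNA methylation sits mainly on the cytosine of CpG dinucleotides. After replication Uhrf1 binds hemimethylated CpG and brings in Dnmt1, which copies the mark to the new strand. Dnmt3a and Dnmt3b place the mark on unmethylated DNA, and Dnmt3l, which has no catalytic activity of its own, assists them. The dioxygenases Tet1, Tet2 and Tet3 oxidise the methyl group, which opens the way to its loss. In the mouse embryo the germ layers are methylated anew around implantation, whereas extraembryonic lineages such as the trophoblast and the visceral endoderm are known to carry less methylation.

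Levels are the authors' RMA values, with the natural log of a deposited signal taken as its log2 value. If those signals are linear after all, every difference below is larger by a factor of 1.44, with the same p-values. A gene is given by its brightest probe set, and levels of different genes are not compared because probe sets differ in brightness. A gene was called where limma gave a Benjamini-Hochberg adjusted p under 0.05 over all 18193 genes. Control probe sets for bacterial transcripts, 27 in all, read 1.33 to 4.03 and mark the range of weak signals.

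The sorted fractions were described by markers of endothelium, of the 3 tissues and of other cells. All 9 endothelial markers were above the bacterial range in every tissue, Pecam1, which encodes CD31, read 9.49 to 10.09 on the 6 arrays, and Ptprc, which encodes CD45, read 2.33 to 2.84, within that range. Itga2b, which encodes CD41, was above it on every array, at 6.81 and 6.93 in heart tube cells, 6.80 and 6.42 in caudal-half cells, and 8.37 and 8.18 in yolk sac cells. It was lower than in yolk sac cells by -1.41 in heart tube cells and by -1.67 in caudal-half cells (limma adjusted p = 0.00687 and 0.00522). The gene lists were chosen with earlier results of these data known, so the counts below describe the samples and do not test what they are. Over all genes 5.51% were called between heart tube and caudal-half cells. The share was 11.8% between heart tube and yolk sac cells and 9.08% between caudal-half and yolk sac cells. Of 5 endocardial markers, 5 were higher in heart tube cells than in either other tissue. Of 4 markers of yolk sac endothelium, 4 were lower in heart tube cells and in caudal-half cells than in yolk sac cells. Of 5 markers of the trunk axis, 5 were lower in heart tube cells than in either other tissue. They did not set caudal-half cells apart from yolk sac cells in 1 direction, since 3 were higher and 2 lower in caudal-half cells. Markers of other cells were also detected, and which cells carried this RNA was not tested. Of 9 visceral endoderm markers, 8 were lower in heart tube cells and in caudal-half cells than in yolk sac cells. The mean level of the 9 in yolk sac cells was 9.56 and 9.52. Of 11 measured markers of primordial germ cells and pluripotency, 9 were lower in heart tube cells than in caudal-half cells, and 8 were higher in caudal-half cells than in yolk sac cells. Mouse primordial germ cells also carry CD31. In such bulk samples, fewer cells of a type and less RNA per cell cannot be told apart.

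By its brightest probe set, each of Tet1 and Dnmt3b passed a test, and both were lower in yolk sac cells. Tet1 was called in heart tube cells and in caudal-half cells against yolk sac cells, and Dnmt3b in heart tube cells against yolk sac cells. No member was called between heart tube and caudal-half cells on its brightest set, where 5.51% of all genes were called. Against yolk sac cells, 11.8% of all genes were called in heart tube cells and 9.08% in caudal-half cells. Dnmt1, the maintenance enzyme, differed by at most 0.02 in each of the 3 comparisons.

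The promoter windows of these 2 genes are shown because they passed the test, and because DNA methylation sits mainly on CpG. They are taken from RefSeq (GRCm38.p6) and run from 250 bases before to 50 after the annotated start, 5′ to 3′ on the gene's strand, with each CpG in capitals. Tet1 lies at chr10:62887275-62887574 on the minus strand and Dnmt3b at chr2:153649199-153649498 on the plus strand.
Tet1: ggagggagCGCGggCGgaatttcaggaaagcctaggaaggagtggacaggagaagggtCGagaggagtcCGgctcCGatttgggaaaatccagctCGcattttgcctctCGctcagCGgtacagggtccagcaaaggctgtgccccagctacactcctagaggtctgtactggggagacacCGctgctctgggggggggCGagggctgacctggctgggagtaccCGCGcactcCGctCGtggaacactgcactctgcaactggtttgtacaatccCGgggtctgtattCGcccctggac
Dnmt3b: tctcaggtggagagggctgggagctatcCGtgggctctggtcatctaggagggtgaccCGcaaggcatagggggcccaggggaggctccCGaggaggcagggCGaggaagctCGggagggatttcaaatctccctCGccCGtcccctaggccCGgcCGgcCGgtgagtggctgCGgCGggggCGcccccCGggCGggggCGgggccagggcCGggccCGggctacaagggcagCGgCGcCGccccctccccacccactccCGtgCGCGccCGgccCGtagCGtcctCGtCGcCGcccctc

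The search was for CG, which reads the same on both strands. The Tet1 window held 17 CpGs, a number reached by 31.4% of the 32851 promoter windows of that length, and the Dnmt3b window held 30, reached by 11.7%. The median window held 7, and 94.6% held at least 1. All 8 members had a window, 15 windows in all, with between 2 CpGs in one of the 3 Dnmt1 windows and 57 in the Tet2 window. The CpG content is a property of the reference sequence, and methylation itself was not measured here.

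**Figure D1:**
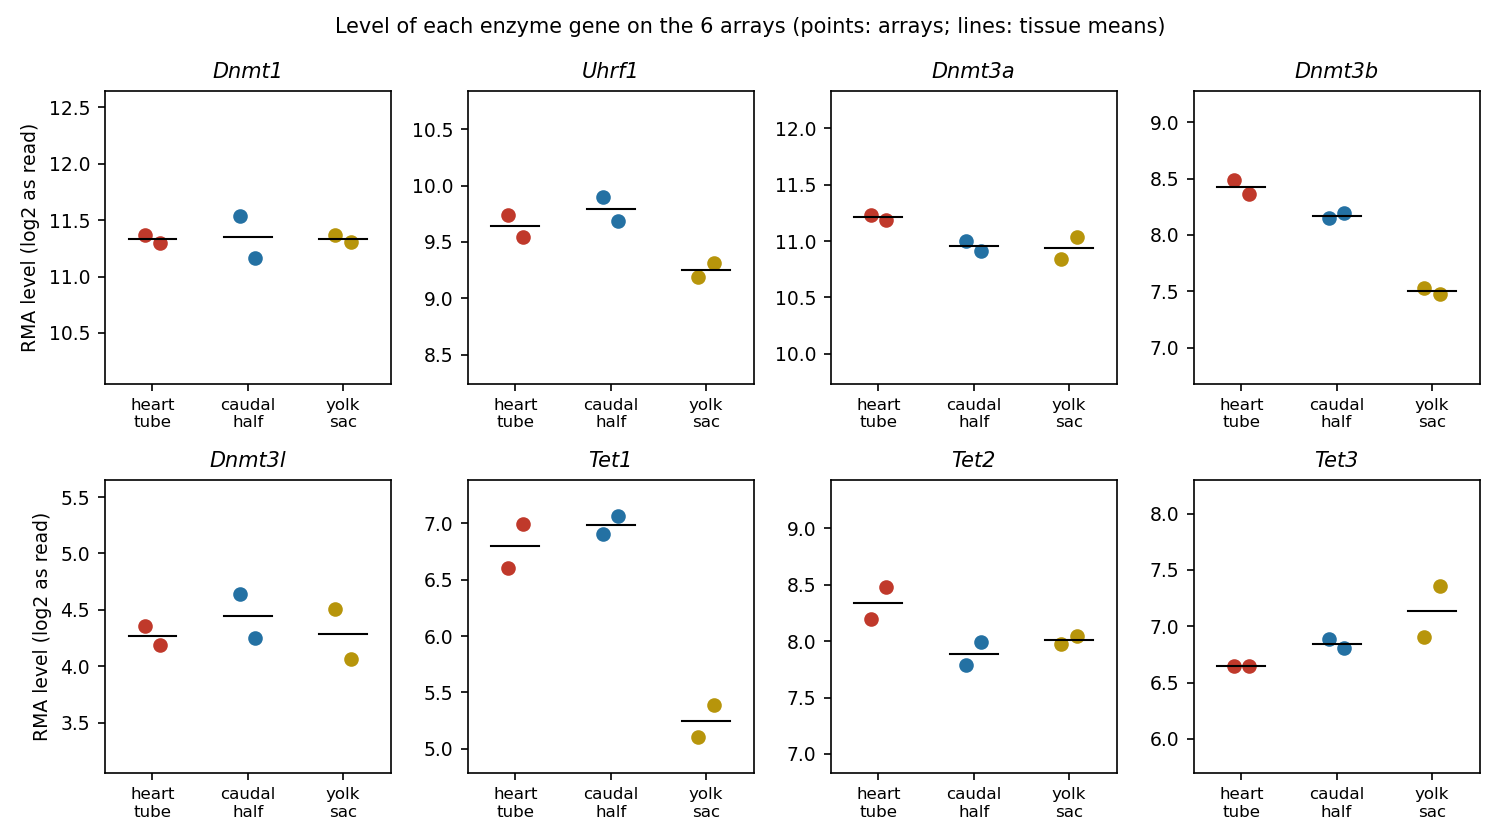
RMA level (log2 as read) of each enzyme gene on the 6 arrays, heart tube, caudal-half and yolk sac cells from left to right, with a line at each tissue mean. Every panel spans the same range, so the drop of Tet1 to 5.11 and 5.39 and of Dnmt3b to 7.53 and 7.47 in yolk sac cells stands out against the flat panels of Dnmt1 and Dnmt3l.

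Among the enzymes that copy the mark, Dnmt1 read 11.37 and 11.30 in heart tube cells, 11.54 and 11.16 in caudal-half cells, and 11.36 and 11.31 in yolk sac cells. The caudal-half arrays enclosed all the others, so the groups overlapped throughout. Its differences were -0.02 ± 0.19 (SE) for heart tube cells against caudal-half cells, -0.001 for heart tube cells against yolk sac cells and 0.02 for caudal-half cells against yolk sac cells. The 95% interval of heart tube cells against yolk sac cells ran from -0.45 to 0.45, so a difference of that size would not have been told from none. Both other Dnmt1 probe sets passed no test either, and their differences lay between -0.19 and 0.04. The brightest and the second brightest of the 3 carry the suffix that Affymetrix gives to sets with probes that may bind other transcripts.

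Uhrf1, which recruits Dnmt1 to newly replicated DNA, read 9.74 and 9.54 in heart tube cells, 9.90 and 9.69 in caudal-half cells, and 9.19 and 9.31 in yolk sac cells. Both yolk sac arrays lay below the 4 embryonic arrays. Caudal-half cells exceeded yolk sac cells by 0.54 ± 0.18 (SE), with a 95% interval of 0.12 to 0.97 before adjustment and a limma adjusted p of 0.121. Heart tube cells exceeded them by 0.39 ± 0.18 (adjusted p = 0.224), and heart tube and caudal-half cells differed by -0.15 (adjusted p = 0.705). The second Uhrf1 probe set had the same order, at differences of 0.37 and 0.43 against yolk sac cells, and passed no test. With limma's trended and robust variance, the caudal-half difference passed (adjusted p = 0.0372).

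Of the enzymes that place the mark anew, Dnmt3b read 8.49 and 8.37 in heart tube cells, 8.15 and 8.19 in caudal-half cells, and 7.53 and 7.47 in yolk sac cells. The 3 tissues did not overlap, with heart tube cells highest and yolk sac cells lowest. It was higher in heart tube cells than in yolk sac cells by 0.93 ± 0.16 (SE), at a limma adjusted p of 0.0141. That call was lost on leaving out either heart tube array or either yolk sac array (adjusted p = 0.0555 to 0.0945), with a difference of 0.86 to 0.99. Caudal-half cells exceeded yolk sac cells by 0.67 ± 0.16, which missed the threshold at an adjusted p of 0.0511. This difference passed with the mean of both Dnmt3b probe sets (0.71, adjusted p = 0.027), without dim genes (0.0383) and with the trended variance (0.0313). Heart tube and caudal-half cells differed by 0.26 ± 0.16 (adjusted p = 0.439), and the order of these 2 is not settled, since the second probe set gave -0.08.

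The second Dnmt3b probe set read 7.58 and 7.48 in heart tube cells, 7.65 and 7.58 in caudal-half cells, and 6.93 and 6.78 in yolk sac cells. It placed yolk sac cells lowest too, and adjusted over the 34945 probe sets with 1 gene symbol it missed the threshold against yolk sac cells in heart tube cells (0.67, adjusted p = 0.0597) and in caudal-half cells (0.76, adjusted p = 0.0515).

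Dnmt3a was the member whose probe sets disagreed most. Its brightest set read 11.23 and 11.19 in heart tube cells, 11.003 and 10.91 in caudal-half cells, and 10.84 and 11.03 in yolk sac cells. The heart tube arrays were above the others, while the caudal-half and yolk sac arrays overlapped, and no difference passed (0.25, 0.27 and 0.02 for the 3 comparisons, adjusted p = 0.464, 0.357 and 0.968). The dimmest of its 5 sets, 1460324_at, read 7.30 and 7.50 in heart tube cells, 6.47 and 6.37 in caudal-half cells, and 7.54 and 7.62 in yolk sac cells. On that set Dnmt3a was higher in heart tube cells than in caudal-half cells by 0.98 (adjusted p = 0.0345) and lower in caudal-half cells than in yolk sac cells by -1.16 (adjusted p = 0.0157).

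The set 1423063_at placed Dnmt3a likewise, lower in caudal-half cells than in yolk sac cells by -0.78 (adjusted p = 0.047). The set 1423065_at gave -0.49 there and passed no test. By contrast the second brightest set, 1423066_at, was higher in heart tube cells than in yolk sac cells by 0.79 (adjusted p = 0.0355) and gave 0.42 for caudal-half cells against yolk sac cells. All 5 sets had heart tube cells above caudal-half cells, by 0.25 to 0.98, whereas the position of yolk sac cells depended on the set. With the mean of the 5 sets, heart tube cells exceeded caudal-half cells by 0.59, which was not called (limma adjusted p = 0.0642). The annotation cites the same sequence for all 5 sets, and which transcripts of the gene each one reads was not tested.

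Dnmt3l, the cofactor without catalytic activity, was close to the bacterial range on every array. It read 4.36 and 4.18 in heart tube cells, 4.64 and 4.25 in caudal-half cells, and 4.5 and 4.06 in yolk sac cells. The groups overlapped, the differences were -0.17, -0.01 and 0.16, and none passed (adjusted p = 0.744 to 0.981). At this signal a small difference would not be detectable.

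**Figure D2:**
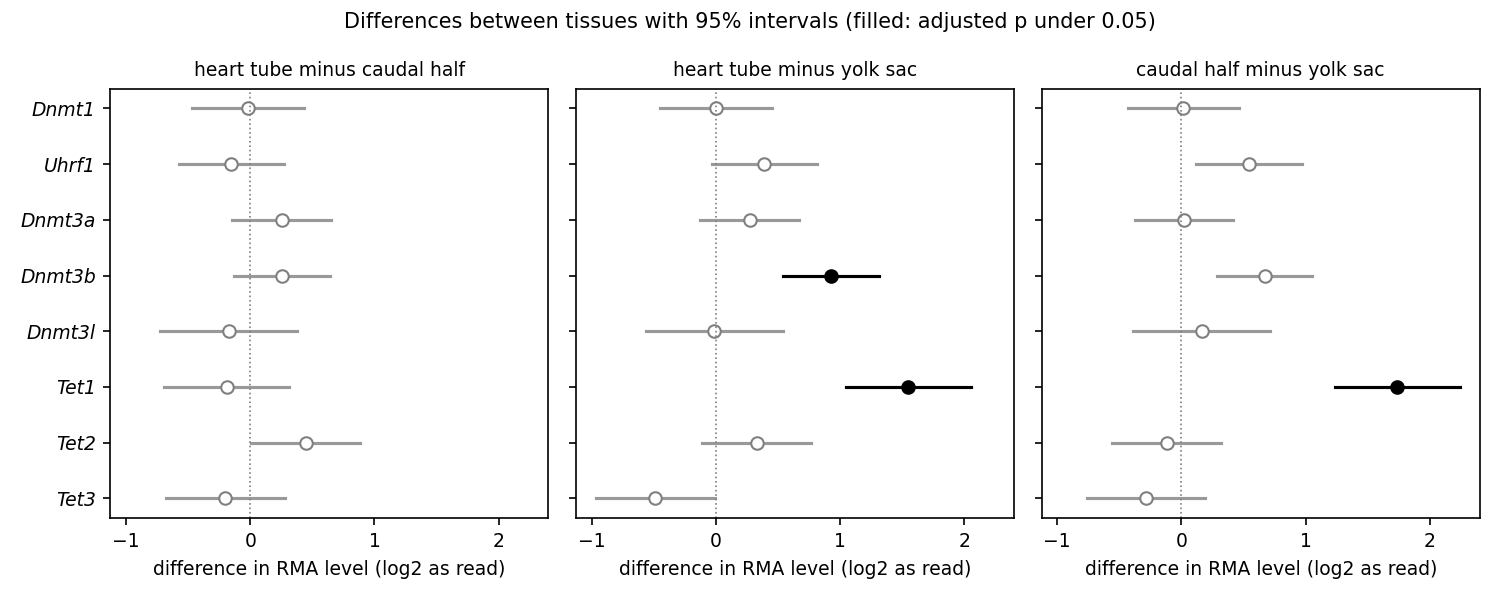
Difference in RMA level (log2 as read) between tissues for the 8 genes, with 95% intervals before adjustment and filled points where the adjusted p was under 0.05. Tet1 lies at 1.55 and 1.74 against yolk sac cells and Dnmt3b at 0.93 in heart tube cells against yolk sac cells, and the remaining points are open.

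Among the demethylating dioxygenases, Tet1 differed most. It read 6.60 and 6.99 in heart tube cells, 6.91 and 7.07 in caudal-half cells, and 5.11 and 5.39 in yolk sac cells. Every embryonic array was above both yolk sac arrays, and the heart tube and caudal-half arrays overlapped. Tet1 was higher in heart tube cells than in yolk sac cells by 1.55 ± 0.21 (SE) and in caudal-half cells than in yolk sac cells by 1.74 ± 0.21, with limma adjusted p of 0.00605 and 0.00556. Both calls remained on leaving out each array in turn, at adjusted p up to 0.0399 and 0.0406. Heart tube and caudal-half cells differed by -0.19 ± 0.21 (adjusted p = 0.685).

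The other Tet1 probe sets agreed in part. The set 1429448_s_at read 5.51 and 5.82 in heart tube cells, 5.76 and 5.84 in caudal-half cells, and 4.64 and 4.93 in yolk sac cells. It was higher than yolk sac cells by 0.88 in heart tube cells and by 1.02 in caudal-half cells (adjusted p = 0.0442 and 0.0363 over all named probe sets). The sets 1419896_at and 1419897_at, which cite 1 sequence between them, read 4.58 and 6.16, and 5.04 and 6.13, in the first and second yolk sac sample, and their differences of 0.20 to 0.85 against yolk sac cells passed no test. With the mean of all 4 sets, Tet1 lost both calls (0.77, adjusted p = 0.131 in heart tube cells and 0.95, adjusted p = 0.0869 in caudal-half cells).

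Tet2, a dioxygenase known for its role in blood-forming cells, read 8.20 and 8.48 in heart tube cells, 7.79 and 7.99 in caudal-half cells, and 7.97 and 8.04 in yolk sac cells. The heart tube arrays were highest, and the caudal-half and yolk sac arrays overlapped. Heart tube cells exceeded caudal-half cells by 0.45 ± 0.18 (SE), with an unadjusted p of 0.0467 in limma and an adjusted p of 0.247. They exceeded yolk sac cells by 0.33 (adjusted p = 0.314). The dimmer Tet2 set had heart tube cells highest on average as well, at 1.08 and 0.64 above caudal-half and yolk sac cells, but its yolk sac arrays stood at 4.997 and 6.60 and nothing passed.

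Tet3, which acts on the paternal genome of the zygote, read 6.64 on both heart tube arrays, 6.89 and 6.80 in caudal-half cells, and 6.91 and 7.36 in yolk sac cells. Yolk sac cells were highest and heart tube cells lowest, with no overlap between the tissues. Heart tube cells were below yolk sac cells by -0.49 ± 0.20 (SE) (unadjusted p = 0.0473, adjusted p = 0.186), and caudal-half cells by -0.29 (adjusted p = 0.455). The difference between heart tube and yolk sac cells was -0.26 without the second yolk sac array. Only 1 probe set represents the gene.

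**Figure D3:**
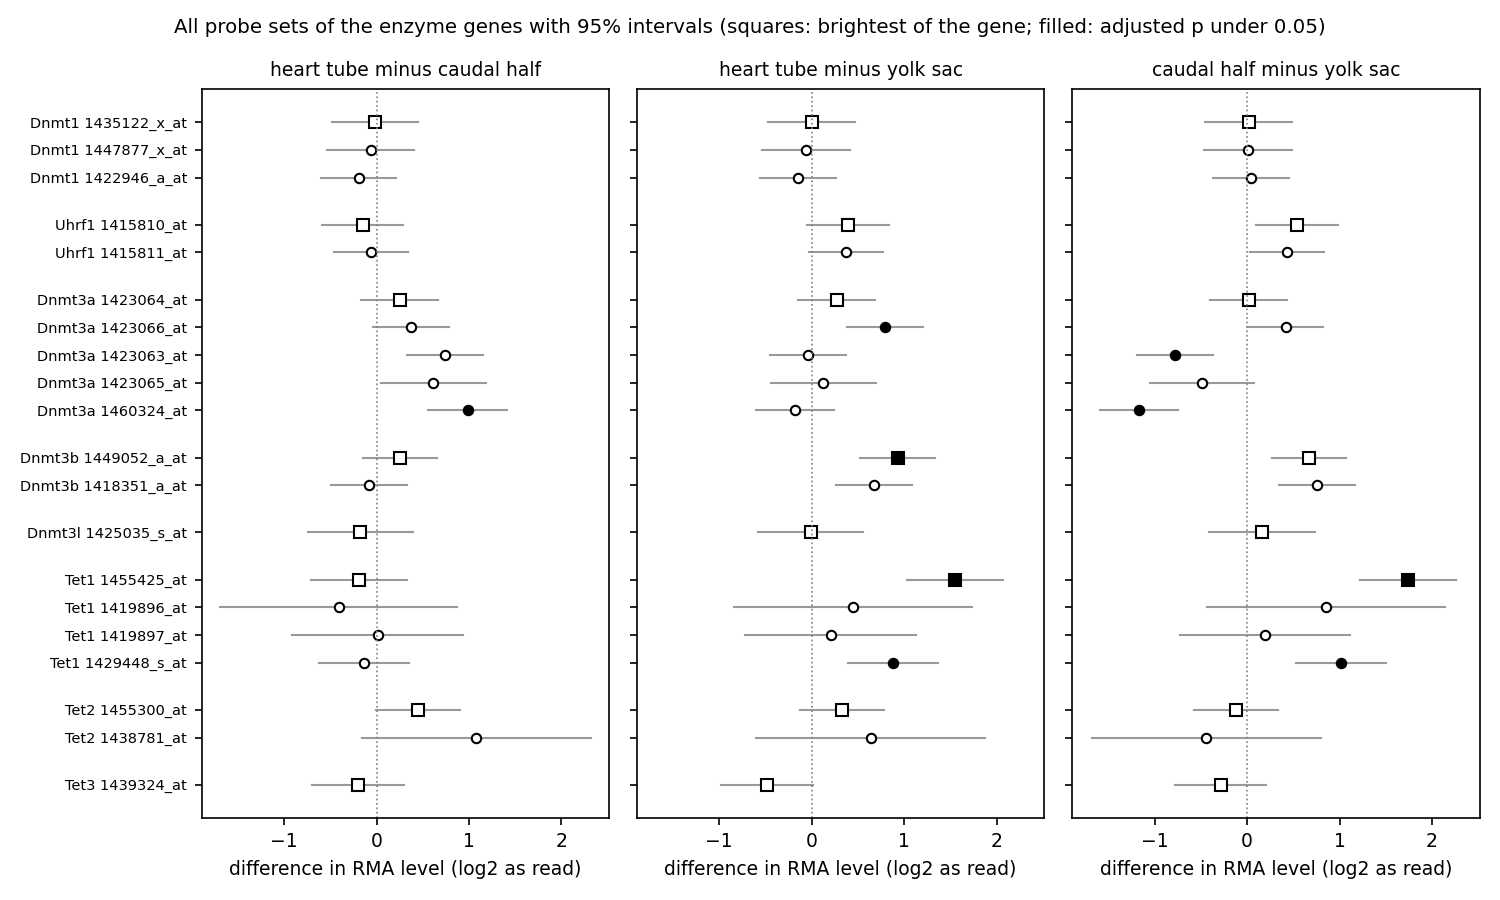
Difference in RMA level (log2 as read) for all 20 probe sets of the 8 genes, with 95% intervals before adjustment, squares for the brightest set of a gene and filled symbols where the adjusted p over all 34945 named probe sets was under 0.05. The sets of Dnmt1 and Uhrf1 fall together, while those of Dnmt3a spread from -1.16 to 0.42 for caudal-half cells against yolk sac cells.

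The counts over the 8 genes were read against those over all genes. Between heart tube and caudal-half cells limma called 0 of 8, against 5.51% of all genes (2.86% higher and 2.65% lower), and 1 member, Tet2, had an unadjusted p under 0.05. With the trended variance the count was 0 too. Between heart tube and yolk sac cells 2 of 8 were higher and 0 lower, against 11.8% of all genes called, 5.14% higher and 6.67% lower. Without either heart tube array or either yolk sac array this count was 1, since Dnmt3b was lost. Between caudal-half and yolk sac cells 1 of 8 was higher and 0 lower, against 9.08% of all genes called, 4.22% higher and 4.86% lower. The median difference of the members was -0.08, 0.30 and 0.09 in these 3 comparisons, and that of all genes -0.08, -0.06 and 0.02.

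The arrays of the tissues did not overlap for 4 of 8 members between heart tube and caudal-half cells, 6 between heart tube and yolk sac cells and 4 between caudal-half and yolk sac cells. The same held for 51.3%, 56.3% and 51.6% of all genes. Over the probe sets 1, 4 and 4 of the 20 were called, against 4.15%, 9.78% and 6.92% of all named probe sets. In the first 2 comparisons all of these were higher. Between caudal-half and yolk sac cells 2 were higher, both of Tet1, and 2 lower, both of Dnmt3a. Sets of the same gene are not separate checks. The last 2 comparisons share the yolk sac arrays.

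The genes whose pattern over the 6 arrays was nearest to that of Tet1 were Ldlrad3 and Colgalt2, at a root mean square distance of 0.13 each after each gene's mean was removed. Ldlrad3 read 8.85 and 9.17 in heart tube cells, 9.27 and 9.33 in caudal-half cells, and 7.27 and 7.34 in yolk sac cells. Nearest to Dnmt3b were Tspan6 and Zcchc10, both at 0.04. With 6 arrays of 3 tissues, many genes share such a pattern.

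The partners of the methyltransferases were read next. Counts here and in the lists below stand beside 5.51% of all genes called between heart tube and caudal-half cells. Between heart tube and yolk sac cells this share was 11.8%, and between caudal-half and yolk sac cells 9.08%. Of 19 measured genes that recruit or limit them, 0 were called between heart tube and caudal-half cells, where 0 had an unadjusted p under 0.05 in limma, and Hells and Kdm2b were higher in heart tube cells and in caudal-half cells than in yolk sac cells. Hells, a chromatin remodeller needed for normal methylation of repeats, read 8.48 and 8.40 in heart tube cells, 8.68 and 8.37 in caudal-half cells, and 7.20 and 7.04 in yolk sac cells. All 4 embryonic arrays were above both yolk sac arrays, by 1.32 ± 0.18 (SE) in heart tube cells (adjusted p = 0.00657) and 1.41 ± 0.18 in caudal-half cells (adjusted p = 0.00742). Kdm2b, a CpG-binding histone demethylase, differed by 1.13 and 1.32 (adjusted p = 0.0249 and 0.0191). The median difference of the list was 0.23 in heart tube cells and 0.36 in caudal-half cells against yolk sac cells.

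Of 8 measured readers of methylated CpG, 2 were higher in heart tube cells than in caudal-half cells and 0 lower. They were the zinc finger genes Zbtb4, which read 7.03 and 6.60 in heart tube cells and 4.52 and 5.13 in caudal-half cells (1.99 ± 0.27 SE, adjusted p = 0.0104), and Zbtb38, at 9.35 and 9.18 against 8.13 and 7.94 in the same order (1.23 ± 0.17, adjusted p = 0.0122). Zbtb38 was also higher in heart tube cells than in yolk sac cells (0.72, adjusted p = 0.0449), and Zbtb4 was lower in caudal-half cells than in yolk sac cells (-1.55, adjusted p = 0.0191). With the mean of all Zbtb4 probe sets the heart tube against caudal-half difference was 1.04, still called, and the caudal-half against yolk sac difference was -0.70, no longer called (adjusted p = 0.056). With the mean of its probe sets Zbtb38 also lost its call against yolk sac cells. For both genes caudal-half cells were the lowest of the 3.

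Of 12 measured genes of base excision, deamination and the GADD45 family, 1 was lower in heart tube cells than in caudal-half cells and 0 were called between heart tube and yolk sac cells (3 at an unadjusted p under 0.05 in limma). Gadd45g, a stress-response gene tied to demethylation, read 6.67 and 6.61 in heart tube cells, 7.91 and 7.95 in caudal-half cells, and 6.92 and 7.12 in yolk sac cells. It was lower in heart tube cells than in caudal-half cells by -1.29 (adjusted p = 0.00849) and higher in caudal-half cells than in yolk sac cells by 0.91 (adjusted p = 0.0221). Apex1, the endonuclease of base excision repair, was higher in caudal-half cells than in yolk sac cells by 0.90 (adjusted p = 0.0384), and Apobec3, a cytidine deaminase of antiviral defence, was lower by -0.94 (adjusted p = 0.0288).

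Of 11 genes of 2-oxoglutarate supply and TET partners, 0 were called between heart tube and caudal-half cells (3 at an unadjusted p under 0.05 in limma). Against yolk sac cells, Cxxc4 and Cxxc5, CXXC proteins linked to Tet2, were higher in heart tube cells by 1.19 and 0.75 (adjusted p = 0.0345 and 0.033). Idh1, which makes the 2-oxoglutarate that TET enzymes use, was lower than in yolk sac cells in heart tube cells by -0.69 and in caudal-half cells by -0.71 (adjusted p = 0.0372 and 0.0394). Of 14 genes of the methyl donor cycle, 1 passed: Mthfd1, a folate enzyme, was higher in caudal-half cells than in yolk sac cells by 0.92 (adjusted p = 0.0188). In the other 2 comparisons 0 were called (5 between heart tube and caudal-half cells and 3 between heart tube and yolk sac cells at an unadjusted p under 0.05 in limma).

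A last list held 15 germline genes whose promoters are known to be methylated in mouse somatic cells. In each tissue 11 of them, not the same genes throughout, were within the bacterial range by tissue mean. Ddx4 read 1.501 to 1.76 on the 6 arrays. Piwil2, a piRNA pathway gene, was called: it read 3.21 and 3.11 in heart tube cells, 5.10 and 4.82 in caudal-half cells, and 2.91 and 3.80 in yolk sac cells. It was lower in heart tube cells than in caudal-half cells by -1.80 (adjusted p = 0.0234) and higher in caudal-half cells than in yolk sac cells by 1.60 (adjusted p = 0.0257), both against signals within the bacterial range. Between heart tube and yolk sac cells 0 were called (2 at an unadjusted p under 0.05 in limma).

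Few of the calls in these 6 lists were firm. Of 19 calls, only that of Hells in caudal-half cells against yolk sac cells was kept on leaving out each of the 6 arrays in turn (adjusted p up to 0.0468), and Hells in heart tube cells lost its call only without the first heart tube array (0.0514). Those kept in 0 of the 6 were Zbtb38 in heart tube cells and Gadd45g in caudal-half cells against yolk sac cells, Cxxc5, and Idh1 in both comparisons, with adjusted p up to 0.21. The other calls were lost without 1 or more single arrays of the tissues compared.

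**Figure D4:**
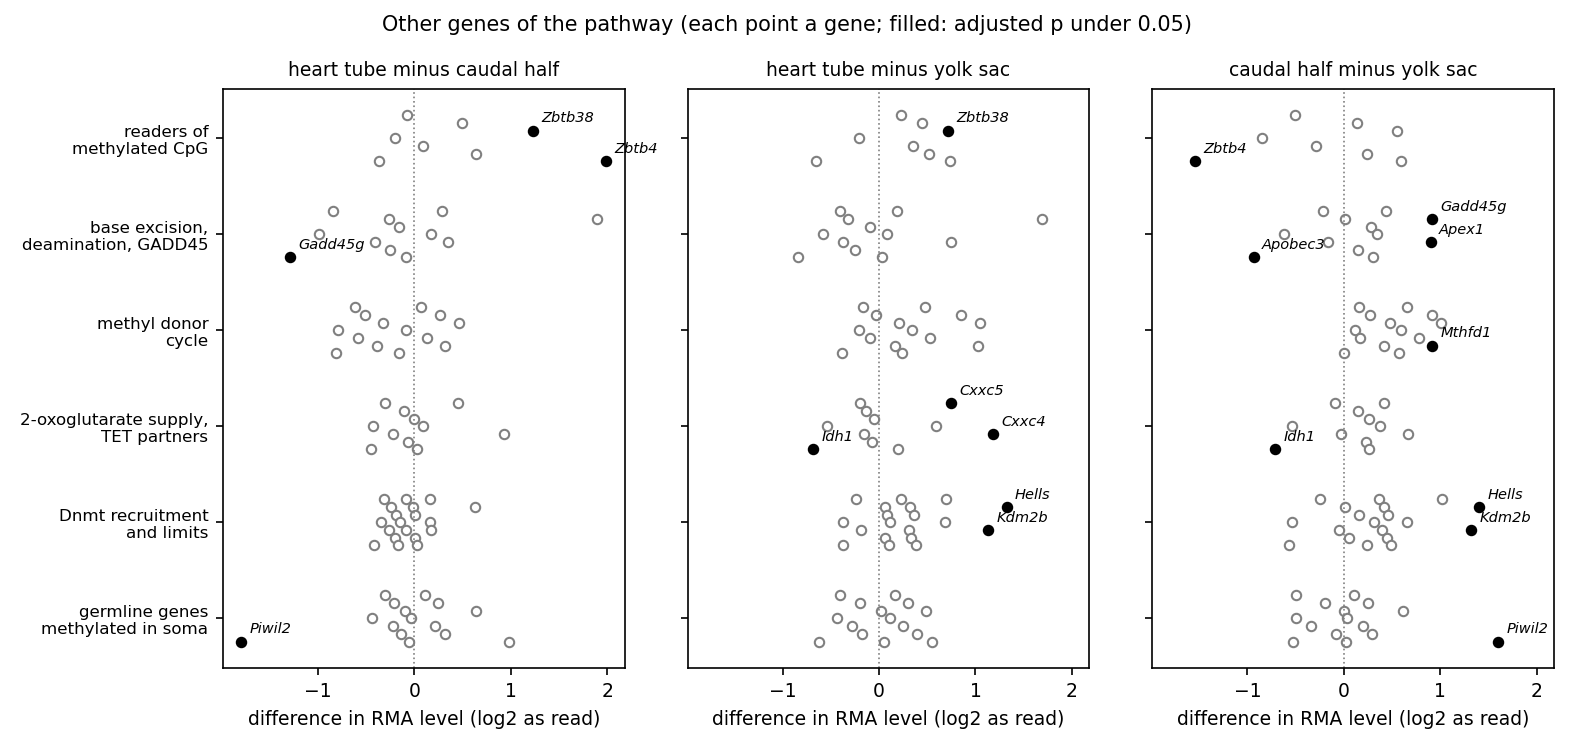
Difference in RMA level (log2 as read) for every measured gene of 6 lists of the pathway, with filled and named points where the adjusted p over all genes was under 0.05. Hells and Kdm2b lie at 1.13 to 1.41 against yolk sac cells in both embryonic tissues, and most points are open.

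Markers of other cells moved with the tissues in which Tet1 and Dnmt3b differed. The mean level of the 9 visceral endoderm markers was 4.43 and 4.40 in heart tube cells, 4.79 and 4.71 in caudal-half cells, and 9.56 and 9.52 in yolk sac cells. By tissue mean none of them was within the bacterial range in yolk sac cells, against 3 in heart tube cells and 2 in caudal-half cells. Hnf4a did not rise with the others. It read 4.27 and 3.99 in heart tube cells, 4.46 and 4.34 in caudal-half cells, and 3.80 and 4.36 in yolk sac cells. The second heart tube array and the first yolk sac array were thus within that range, and the others were close to it. The mean level of the 6 erythroid markers was 6.73 and 6.71, 7.18 and 6.90, and 7.99 and 8.27 in heart tube, caudal-half and yolk sac cells. They did not move together: 3 were lower and 1 higher in heart tube cells than in yolk sac cells. The erythroid gene Klf1 read 6.59 and 6.68 in heart tube cells, 5.75 and 4.75 in caudal-half cells, and 4.08 and 4.90 in yolk sac cells. Other lists moved as well between heart tube and yolk sac cells, where 11.8% of all genes were called. Of 10 cardiomyocyte markers 6 were higher in heart tube cells, all 5 epithelial markers and all 5 of the trunk axis were lower, and of 8 mesenchymal markers 3 were higher and 3 lower. Of the 9 endothelial markers 5 were lower. The part of any of these cells in the lower Tet1 and Dnmt3b of yolk sac cells was not tested.

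The mean level of the 11 germ cell and pluripotency markers was 4.51 and 4.23 in heart tube cells, 7.88 and 7.78 in caudal-half cells, and 5.90 and 5.61 in yolk sac cells. By tissue mean 5 of 11 were within the bacterial range in heart tube cells, 0 in caudal-half cells and 3 in yolk sac cells. In heart tube cells the pluripotency factor Pou5f1 read 3.71 and 3.75 and the germ cell gene Dppa3 3.35 and 3.20, within that range, whereas Ifitm3 read 9.30 and 9.42 and Tfap2c 7.42 and 5.86. In caudal-half cells Pou5f1 read 8.08 and 7.63 and Dppa3 9.68 and 9.52. The part of these cells in the levels of Tet1 and Dnmt3b was not tested in any tissue.

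Markers of cycling cells, with which Dnmt1 and Uhrf1 are known to be expressed, were read beside them. Of 18, 0 were called between heart tube and caudal-half cells (3 at an unadjusted p under 0.05 in limma), 1 was higher in heart tube cells than in yolk sac cells (6 at an unadjusted p under 0.05) and 2 were higher in caudal-half cells than in yolk sac cells (3 at an unadjusted p under 0.05). These were the replication helicase genes Mcm7 (0.79 and 0.85) and Mcm3 (0.88 in caudal-half cells), with adjusted p of 0.0229 to 0.0372. Not every marker went this way. Mki67 read 11.76 and 11.65 in heart tube cells, 11.78 and 11.88 in caudal-half cells, and 12.19 and 12.09 in yolk sac cells. On leaving out each array in turn, 0 were called in caudal-half cells against yolk sac cells, and with the trended and robust variance 6 were called in heart tube cells against yolk sac cells. The mean level of the list was 9.5 and 9.49 in heart tube cells, 9.53 and 9.59 in caudal-half cells, and 9.40 and 9.34 in yolk sac cells. Endothelial markers averaged 9.27 and 9.47, 10.16 and 10.26, and 10.33 and 10.40 in the same tissues.

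**Figure D5:**
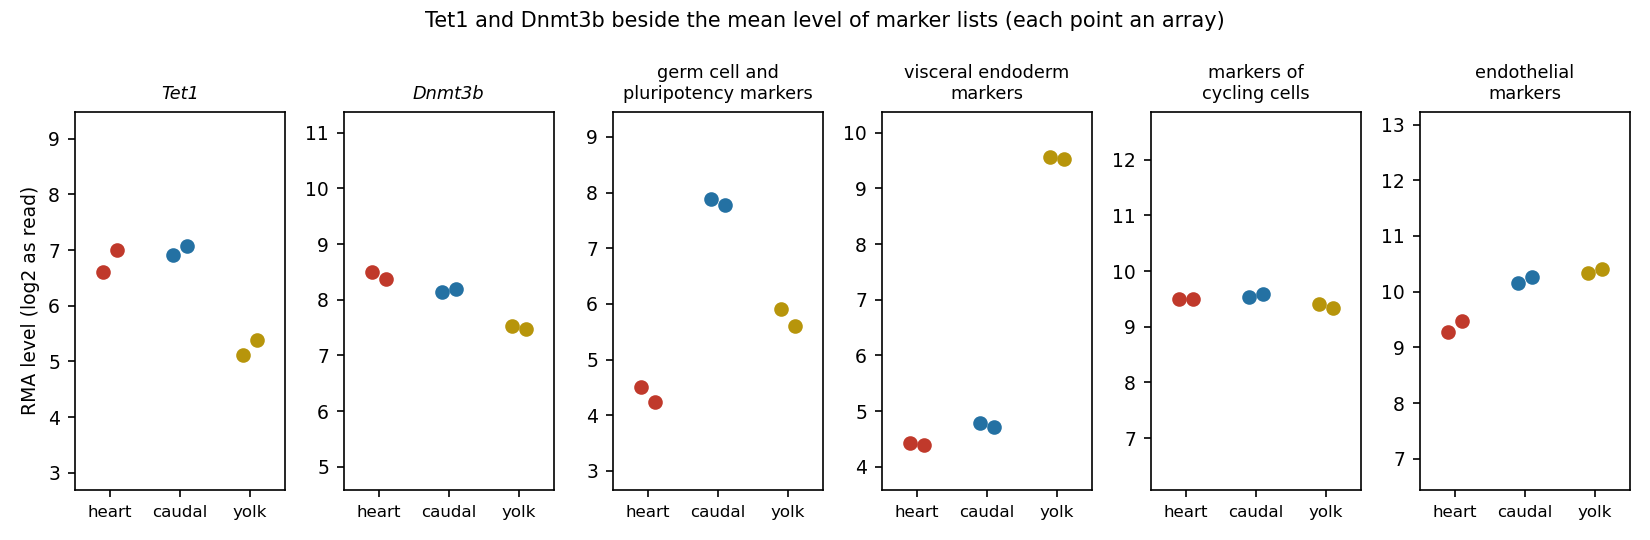
RMA level (log2 as read) of Tet1 and Dnmt3b beside the mean level of 4 marker lists on the 6 arrays, every panel spanning the same range. Visceral endoderm markers separate yolk sac cells (9.56 and 9.52), germ cell markers caudal-half cells (7.88 and 7.78), and the means of the cycling markers lie between 9.34 and 9.59.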

How the data were processed

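Per the submitters' processing notes, the authors computed the deposited signal of a probe set by RMA (affy package); other upstream settings were not stated in the sources used here. Deposited signals reached 2172540, more than a 16-bit scanner can give, while their natural log lay between 0.90 and 14.59, where RMA log2 values usually lie, so the natural log was taken as log2. Of 45101 probe sets, 34945 carried 1 gene symbol and were no control, and the brightest set over the 6 arrays stood for each of 18193 genes. The number of arrays limits the precision.

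A linear model of the 3 tissues over all 6 arrays, without a covariate, was run in limma 3.58.1 and R 4.3.3 (3 residual and 3.48 prior degrees of freedom), and 3 pairwise differences were tested two-sided with Benjamini-Hochberg adjustment. Single probe sets were tested in a fit over all 34945. Correlations between arrays over all probe sets were 0.981 to 0.986 within a tissue and 0.946 to 0.969 across tissues. The Gapdh control probe sets, which report on RNA integrity, read higher at the 3' than at the 5' end by 1.88 and 1.98 in heart tube cells, 1.67 and 1.58 in caudal-half cells, and 2.04 and 1.81 in yolk sac cells. The same difference for the actin control probe sets was -0.06 and 0.01, -0.1 and -0.01, and -0.05 and -0.04 in these tissues.

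The 8 members and the gene lists were chosen with earlier results of these data known. All members are named; from each list up to 4 called genes per comparison with the largest difference are named, and for each called member the 2 genes of nearest pattern. Some genes of the lists were not analysed here. Other probe set choices, scalings, filters, variance models, arrays left out and a replicate block were tried as alternatives. Further marker lists served to describe the samples, and markers named singly were chosen after their values were seen. Among those not given with the results, between heart tube and yolk sac cells limma called 0 of 5 neural genes (0 at an unadjusted p under 0.05) and 1 of 6 leukocyte and megakaryocyte genes, Itga2b, which was lower in heart tube cells.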

Additional observations from a re-analysis of the deposited data

How the results depend on the processing

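Of 360 differences of the 8 members under the alternatives, 332 kept their direction and their side of the threshold. Not all of the 360 were separate checks. Reading the signals as linear only rescales a difference and cannot change its direction or p-value. Leaving out either array of the third tissue gave the same fit as using only the 4 arrays of the 2 tissues compared. Both Tet1 calls were lost with the mean of all its probe sets, which lowered the count of called members between heart tube and yolk sac cells to 1, and held in all other settings run. That count was 1 to 2 without single arrays. Between caudal-half and yolk sac cells the called members were 2 without dim genes (Dnmt3b added) and 3 with the trended and robust variance (Dnmt3b and Uhrf1 added). Over all genes, leaving out single arrays gave 376 to 899 calls between heart tube and caudal-half cells (1002 with all arrays), 936 to 1794 between heart tube and yolk sac cells (2150) and 638 to 1155 between caudal-half and yolk sac cells (1652), in fits with fewer arrays. Testing all 34945 probe sets gave 3416 calls between heart tube and yolk sac cells.

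Among the members' differences, those that turned their direction under an alternative were none of the called ones. Leaving out single arrays, Dnmt1 ranged from -0.204 to 0.169 between heart tube and caudal-half cells, from -0.035 to 0.033 between heart tube and yolk sac cells and from -0.17 to 0.203 between caudal-half and yolk sac cells. Dnmt3l ranged from -0.373 to 0.025, from -0.232 to 0.207 and from -0.058 to 0.381 in these comparisons, Tet1 from -0.384 to 0.006 in the first, and Dnmt3a from -0.076 to 0.115 in the last. After a second quantile normalization Dnmt1 was at 0.018 and Dnmt3l at 0.003 between heart tube and yolk sac cells, and Dnmt3a at -0.016 between caudal-half and yolk sac cells, where the mean of its probe sets gave -0.399. The cause was not tested.

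The labels give the tissues the same replicate numbers, but same-numbered samples did not deviate together (correlations of 0.047, -0.007 and 0.019 over 18193 genes). With the replicate number as a block, 0, 2 and 1 members and 776, 1876 and 1356 genes were called in the 3 comparisons.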
